A study of Mus musculus with 2 samples.

Results

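The 43 genes described here encode proteins of DNA replication and of mitosis, and all 43 were found by symbol among the 55536 annotated genes of the tables. Of these, 17 act at the entry into S phase or in DNA synthesis and are called replication members, and 26 act from late S phase through cytokinesis and are called mitosis members. The RNA came from the gastrocnemius, a calf muscle made mostly of fast fibres, taken from B6CASTF1/J males aged 14 days, which are offspring of C57BL/6J and CAST/EiJ. Total RNA was sequenced in 2 biological replicates, each from 300 ng of RNA with ERCC control RNAs added, and the labels give no treatment, transgene or second condition. The labels speak of 3 males and give 1 donor identifier to both libraries, so it is not settled whether a library held 1 animal or a pool. The spread between the libraries may therefore be technical, and a p-value compares these libraries only. The tables held 40825601 expected counts in replicate 1 and 37329025 in replicate 2, of which ERCC RNAs took 0.731% and 0.881%. The floor of 3 counts equalled 0.0740 and 0.0811 CPM. The myofibre markers Acta1, Ckm, Myh4, Mylpf and Tnnt3 together held 91128 TPM in replicate 1 and 97859 in replicate 2, so the defining markers of the labelled tissue were present. TPM is a level corrected for transcript length and scaled to a fixed sum in each library.

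A dividing cell copies its DNA once in S phase and shares the copies out in mitosis. Cyclin E with CDK2 and the E2F factors open S phase, the MCM helicase unwinds the DNA, and the clamp PCNA holds the polymerases on it. Cyclins A and B with CDK1 then drive mitosis, in which Aurora and Polo kinases, kinetochores and kinesin motors move the chromosomes. Mature myofibres have left the cycle for good, so in growing muscle these transcripts are known from satellite cells, myoblasts and other mononuclear cells. In whole tissue, fewer cycling cells and less RNA per cycling cell cannot be told apart.

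Promoters of the 2 classes differed in how often they held certain short motifs, and 8 are shown as examples with and without the motifs counted below. Mitotic genes are known for the cell cycle genes homology region (CHR), bound by the MuvB complex, and for CCAAT boxes, bound by NF-Y. S-phase genes are known for E2F sites. The letters searched, on both strands and with overlapping matches kept, were TTTGAA and TTCGAA for the CHR, CCAAT for the CCAAT box, and TTTGGCGC, TTTCCCGC, TTTGCCGC, TTTCGCGC and GGCGGGAA for E2F. Some E2F letters overlap each other, as in the first Mcm6 match. Each sequence below is from RefSeq on GRCm38.p6, reads 5′ to 3′ on the gene's strand, and covers 150 bases before to 30 after the RefSeq start of transcription. It thus spans the upstream flank and the first bases of the first exon. Capitals mark matches. The 4 mitosis promoters were these.
Ccnb2, chr9:70421525-70421704, minus strand: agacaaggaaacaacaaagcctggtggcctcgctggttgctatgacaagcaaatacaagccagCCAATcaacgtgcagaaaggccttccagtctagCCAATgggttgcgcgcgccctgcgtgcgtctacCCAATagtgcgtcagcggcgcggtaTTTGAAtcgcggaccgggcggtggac
Cdk1, chr10:69352883-69353062, minus strand: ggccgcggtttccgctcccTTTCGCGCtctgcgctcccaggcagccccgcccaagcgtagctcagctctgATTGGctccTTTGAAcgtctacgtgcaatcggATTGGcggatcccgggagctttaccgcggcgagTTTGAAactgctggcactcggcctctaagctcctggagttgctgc
Top2a, chr11:99024160-99024339, minus strand: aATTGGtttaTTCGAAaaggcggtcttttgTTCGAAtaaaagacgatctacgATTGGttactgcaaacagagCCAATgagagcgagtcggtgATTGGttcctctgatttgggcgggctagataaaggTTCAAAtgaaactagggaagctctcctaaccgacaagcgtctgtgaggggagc
Ube2c, chr2:164769779-164769958, plus strand: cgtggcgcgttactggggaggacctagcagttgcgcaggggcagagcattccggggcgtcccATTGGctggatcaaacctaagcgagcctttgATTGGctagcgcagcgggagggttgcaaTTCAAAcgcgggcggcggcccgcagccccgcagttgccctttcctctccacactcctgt
The 4 replication promoters were these, of which Pcna holds a CCAAT box alone and Tk1 none of the motifs in these bases.
Mcm6, chr1:128359676-128359855, minus strand: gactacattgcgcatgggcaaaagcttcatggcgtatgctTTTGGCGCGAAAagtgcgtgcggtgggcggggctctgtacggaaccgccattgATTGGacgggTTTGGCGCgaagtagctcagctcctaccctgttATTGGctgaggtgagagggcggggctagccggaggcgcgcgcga
Mcm5, chr8:75109359-75109538, plus strand: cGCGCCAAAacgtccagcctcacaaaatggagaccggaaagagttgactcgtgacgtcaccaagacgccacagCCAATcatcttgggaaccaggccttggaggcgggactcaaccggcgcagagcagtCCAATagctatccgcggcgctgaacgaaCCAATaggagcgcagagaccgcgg
Pcna, chr2:132253151-132253330, minus strand: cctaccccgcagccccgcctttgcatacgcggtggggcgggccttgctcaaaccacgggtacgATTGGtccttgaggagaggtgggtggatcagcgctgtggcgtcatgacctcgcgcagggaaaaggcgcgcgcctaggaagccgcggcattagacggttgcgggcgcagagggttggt
Tk1, chr11:117825985-117826164, minus strand: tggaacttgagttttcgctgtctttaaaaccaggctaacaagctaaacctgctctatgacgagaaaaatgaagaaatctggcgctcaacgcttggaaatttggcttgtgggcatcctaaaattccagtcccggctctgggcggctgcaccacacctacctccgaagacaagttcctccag

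RefSeq promoter windows of 250 bases before to 50 after the start were matched for 36 of the 43 genes, 21 mitosis and 15 replication members. No entry was matched for Ccna2, Ccne2, Aurkb, Kif20a, Mcm4, Tpx2 and Foxm1. A CHR stood in 17 of 21 mitosis windows (81.0%), in 4 of 15 replication windows (26.7%) and in 20.2% of the windows of 17491 protein-coding genes. A CCAAT box stood in 19 of 21 mitosis windows (90.5%), in 11 of 15 replication windows (73.3%) and in 42.3% of protein-coding genes. All 17 mitosis windows and all 4 replication windows with a CHR also held a CCAAT box, a pair that 8.22% of protein-coding genes had. E2F letters went the other way, with 6 of 15 replication windows (40.0%), 1 of 21 mitosis windows (4.76%) and 5.70% of protein-coding genes. The replication genes with E2F letters were Mcm3, Mcm5, Mcm6, Mcm7, Rrm1 and Cdk2, and the mitosis gene was Cdk1. In Ccnb2, the gene of cyclin B2, 3 CCAAT boxes began 87, 54 and 21 bases before the start and were followed by a CHR at base 5 after it. In Cdk1 a CHR began 15 bases before the start, and in Ube2c 29 bases before. From 50 bases before to 50 after the start, a window chosen after the positions were seen, a CHR stood in 16 of 21 mitosis genes, in 2 of 15 replication genes and in 5.08% of protein-coding genes. Such matches describe letters and are not binding sites, and a window without a match says nothing about the factor. Over all genes of the table, coding or not, the shares were 21.7% for the CHR, 41.1% for the CCAAT box, 8.61% for the pair and 4.46% for E2F.

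**Figure D1:**
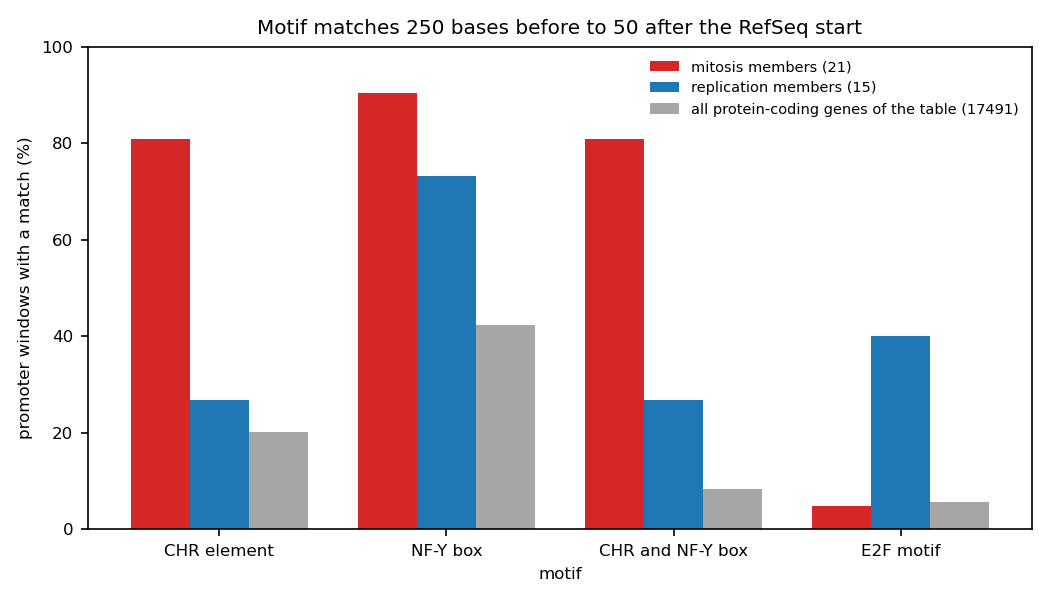
Percent of promoter windows (250 bases before to 50 after the RefSeq start) with at least 1 match, for 21 mitosis members (red), 15 replication members (blue) and 17491 protein-coding genes (grey). The CHR is in 81.0% of mitosis windows and 26.7% of replication windows, while E2F letters are in 4.76% and 40.0%. The NF-Y box is the CCAAT box.

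All 43 genes were low but counted in both libraries. Of them, 36 reached 1 TPM in both libraries, 15 of 17 replication and 21 of 26 mitosis members. The median was 2.13 TPM in replicate 1 and 1.65 in replicate 2, and 36 genes had a mean between 1 and 5 TPM. Only Pcna lay above 7.55 TPM, the median of the 11077 nuclear protein-coding genes whose mean reached 1 TPM. Together the 43 genes held 119 TPM in replicate 1 and 93.9 in replicate 2, or 0.0257% and 0.0199% of the TPM of nuclear protein-coding genes. Counts per gene and library ran from 25 to 1594. The replication members had a higher median than the mitosis members in both libraries, 2.50 against 2.00 TPM in replicate 1 and 2.27 against 1.62 in replicate 2. The ratio of these medians was 1.33 ± 0.107 (SD, n = 2).

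**Figure D2:**
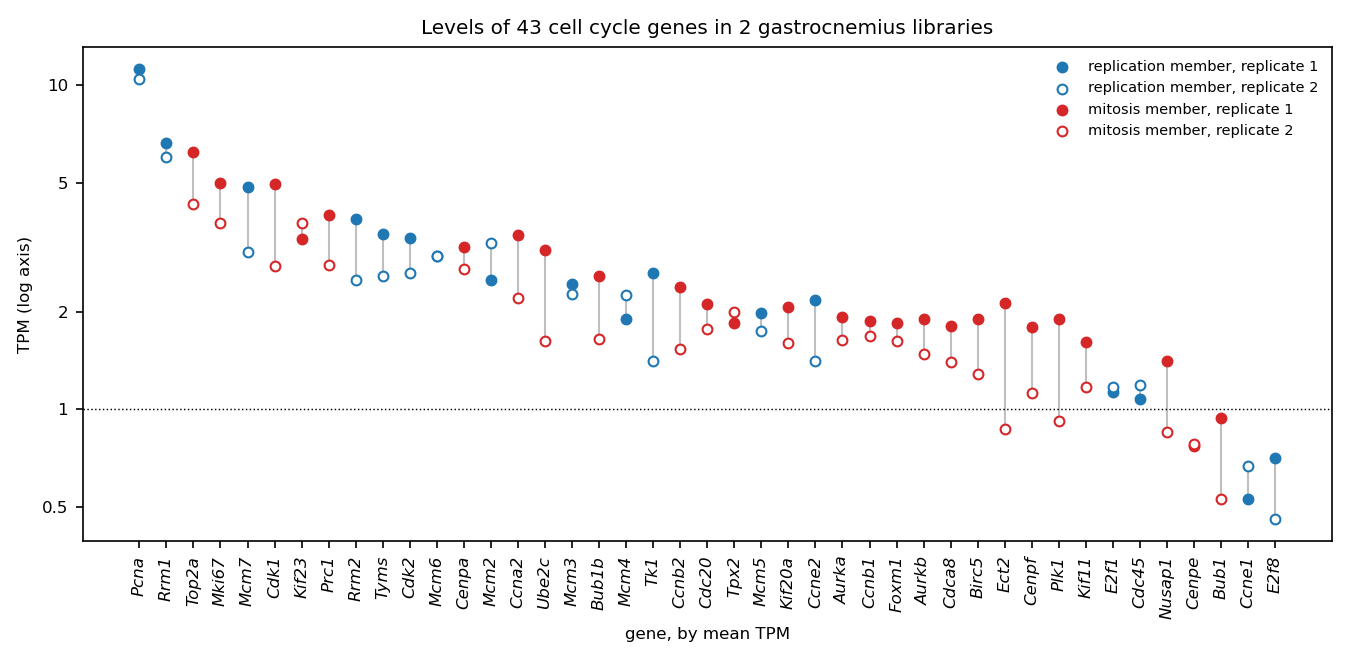
TPM on a log axis for each of the 43 genes in replicate 1 (filled) and replicate 2 (open), ordered by mean TPM, with replication members in blue and mitosis members in red. Pcna stands at the top with 11.2 and 10.5 TPM, and most genes lie between 1 and 5 TPM. The dotted line marks 1 TPM.

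Among genes of the replication fork, Pcna, the sliding clamp of the polymerases, was the highest of all members. Pcna (ENSMUSG00000027342.14, chromosome 2, 132249162 to 132253314 on GRCm38, GENCODE M21) was at 11.2 TPM in replicate 1 and 10.5 in replicate 2, a mean of 10.8 ± 0.488 (SD, n = 2). Its counts were 499 and 442, and the libraries did not differ beyond counting error (binomial test, adjusted p = 0.917). A processed copy of it, Pcna-ps2, was listed at 1.57 and 1.49 TPM, and reads shared with it are assigned by the quantifier. The 6 subunits of the MCM2-7 helicase lay close together, from 1.86 TPM for Mcm5 to 3.96 for Mcm7. Mcm6 was at 2.98 and 2.97 TPM, so its libraries were nearly equal. Mcm2 was at 2.50 and 3.26 TPM, Mcm3 at 2.43 and 2.27, Mcm4 at 1.90 and 2.26, and Mcm5 at 1.98 and 1.75. By TPM, Mcm3 and Mcm5 were thus higher in replicate 1 and Mcm2 and Mcm4 in replicate 2, though the counts of Mcm2 and Mcm3 pointed the other way. Mcm7 was at 4.85 TPM in replicate 1 and 3.07 in replicate 2, with deposited intervals that overlapped, 4.64 to 6.44 and 3.23 to 4.74. The TPM of replicate 2 lay below its own interval. Cdc45, which joins MCM2-7 in the active helicase, was lower, at 1.08 and 1.19 TPM.

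The enzymes that supply nucleotides for DNA had means from 2.02 TPM for Tk1 to 6.33 for Rrm1. Rrm1, the large subunit of ribonucleotide reductase, was at 6.64 and 6.03 TPM, and Rrm2, its small subunit that is made in S phase, at 3.86 and 2.50. The ratio of Rrm1 to Rrm2 was 1.72 in replicate 1 and 2.41 in replicate 2. Tyms, thymidylate synthase, was at 3.48 and 2.58 TPM. Tk1, cytosolic thymidine kinase, was at 2.64 and 1.41 TPM. All 4 were higher in replicate 1, by TPM. The counts of Rrm1 and Tyms did not differ beyond counting error (adjusted p = 0.478 and 0.824, binomial test). For Tyms this rests on 90 and 75 counts. Another quantification, described below, gave it 195 and 128, which lie further apart.

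Among the cyclins and their kinases, Cdk1 was the highest in replicate 1 and had the lowest ratio of replicate 2 to replicate 1. Cdk1 (ENSMUSG00000019942.13, chromosome 10, 69335146 to 69352938), the kinase of mitosis, was at 4.97 TPM in replicate 1 and 2.78 in replicate 2. Cdk2, the kinase of S phase, was at 3.39 and 2.64 TPM. Their ratio thus went from 1.47 to 1.05, so Cdk1 stood above Cdk2 in replicate 1 and near it in replicate 2. Ccna2, cyclin A2, was at 3.46 and 2.21 TPM. Of the B cyclins, Ccnb2 was at 2.38 and 1.54 TPM and Ccnb1 at 1.88 and 1.69. Their ratio, Ccnb1 over Ccnb2, was 0.790 and 1.1, but 0.719 and 0.989 in a second quantification that the authors made from the reads and an index, and their counts were nearly equal in both libraries (104 and 65 against 109 and 66). Of the E cyclins, Ccne2 was at 2.17 and 1.41 TPM and Ccne1 at 0.530 and 0.670. Ccne2 was above Ccne1 in both libraries, with counts of 112 and 70 against 26 and 25.

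Transcription factors of the cycle were among the lowest members. Foxm1, which activates mitotic genes, was at 1.85 and 1.62 TPM. E2f1, an activator of S-phase genes, was at 1.13 and 1.17 TPM, and E2f8, a repressor of E2F targets, at 0.710 and 0.460. E2f8 was the lowest of the 43 genes by mean TPM, at 0.585, just below Ccne1 at 0.600. With SDs of 0.177 and 0.0990 (n = 2), these neighbours did not differ beyond their spread.

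The highest mitosis members were Top2a, the topoisomerase that untangles sister chromatids, and Mki67, the coat protein of mitotic chromosomes known as Ki-67. Top2a (ENSMUSG00000020914.17, chromosome 11, 98992943 to 99024189) was at 6.21 TPM in replicate 1 and 4.31 in replicate 2. Mki67 (ENSMUSG00000031004.8, chromosome 7, 135689784 to 135716361) was at 5.0 and 3.75 TPM, with the most counts of any member, 1594 and 1118. The ratio of Top2a to Mki67 was nearly the same in both, 1.24 and 1.15. In the second quantification it was 1.07 and 0.825, so which of them is higher is not settled. Pcna stood above Mki67 by 2.23 times in replicate 1 and 2.79 times in replicate 2.

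Mitotic kinases and checkpoint genes lay within a narrow band. Bub1b, the checkpoint protein BubR1, was highest at 2.58 and 1.65 TPM, and Bub1, its relative at the kinetochore, lowest at 0.940 and 0.530. Aurka, the kinase of spindle poles, was at 1.93 and 1.64 TPM. Aurkb, the kinase of the chromosomal passenger complex, was at 1.90 and 1.48 TPM, and its partners Birc5 at 1.90 and 1.29 and Cdca8 at 1.81 and 1.40. The 3 passenger genes were thus close to each other in replicate 1, but in the second quantification they were at 3.86, 2.59 and 4.01 TPM there. Plk1, the Polo kinase, was at 1.90 and 0.920 TPM. All 7 had higher TPM in replicate 1, yet none of the 7 passed the binomial test, and their counts were 150 or fewer per library.

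At the centromere, Cenpa, the centromeric histone, was at 3.17 and 2.71 TPM. Cenpf, a kinetochore protein, was at 1.80 and 1.12 TPM, and Cenpe, a kinetochore motor, at 0.770 and 0.780. Cenpe was thus below 1 TPM in both libraries. Among motors and spindle proteins, Kif23, a midzone kinesin, was at 3.36 and 3.75 TPM and Prc1, which bundles midzone microtubules, at 3.98 and 2.79. Ect2, which activates RhoA for the cleavage furrow, was at 2.13 and 0.870 TPM. Ect2 was thus above 1 TPM in replicate 1 and below it in replicate 2, as were Plk1 and Nusap1, a spindle protein at 1.41 and 0.850. In the second quantification these genes were above 1 TPM in both libraries. In replicate 2 they were there at 1.58 (Ect2), 1.32 (Plk1) and 1.28 TPM (Nusap1). Kif20a was at 2.07 and 1.60 TPM, Tpx2 at 1.85 and 2.00, and Kif11, the motor that separates spindle poles, at 1.61 and 1.17. For anaphase, Cdc20, an activator of the anaphase-promoting complex, was at 2.11 and 1.77 TPM and Ube2c, its ubiquitin-conjugating enzyme, at 3.10 and 1.62.

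Between the libraries the mitosis members stood lower in replicate 2, gene after gene, and the replication members did not do so as a class. All 26 mitosis members had a lower scaled count in replicate 2, against 11 of 17 replication members and 52.2% of the 17245 genes tested. Scaled counts are expected counts divided by library sizes that TMM, a trimmed mean over genes, makes comparable. The median log2 ratio of replicate 2 over replicate 1 was -0.44 for mitosis members, -0.08 for replication members and -0.01 for all genes tested. Mitosis members ranged from -0.80 for Ube2c to -0.11 for Cdc20. Replication members ranged from -0.72 for Tk1 to 0.38 for Mcm3, and the subunits of MCM2-7 had a median of -0.02. Summed counts went from 6147 to 4151 over the mitosis members and from 3763 to 3160 over the replication members. Whether the classes differ was not tested, since 1 library stood on each side and genes are not replicates.

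A two-sided exact binomial test on the counts, with Benjamini-Hochberg adjustment across every gene tested, called 15 of the 43 members at 0.05. Of all genes tested it called 21.3%, 10.7% lower and 10.6% higher in replicate 2. All 15 members were lower in replicate 2, 12 of 26 mitosis members and 3 of 17 replication members, and 0 were higher. The replication share, 17.6%, is near the background, and the mitosis share, 46.2%, is above it. Among the 10841 genes within the members' range of counts, 19.0% were called. At an unadjusted p under 0.05 there were 25 of the 43 members. So were 5362 of the 17245 genes tested, and 3239 of the 10841 in the members' range of counts. The test covers counting error only. With edgeR's exact test and the common dispersion of these libraries, 0 members were called, against 0.928% of genes. By that test 6 of the 43 members had an unadjusted p under 0.05, against 6.28% of genes. The lowest adjusted p of a member there was 0.559, for Ect2. So 15 members differed beyond counting error, and by that test none differed beyond the spread that genes in general showed between these libraries.

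**Figure D3:**
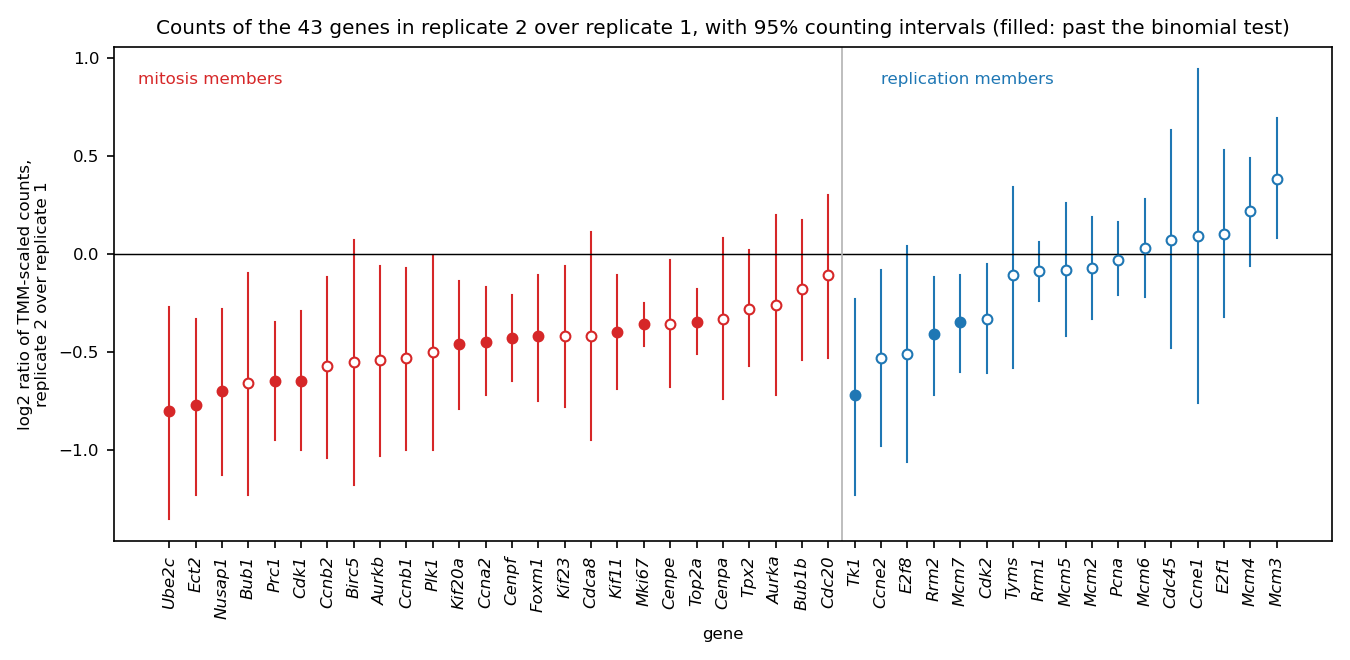
Log2 ratio of TMM-scaled counts, replicate 2 over replicate 1, with 95% counting intervals, for 26 mitosis members (red, left) and 17 replication members (blue, right). Filled points passed the binomial test. Every mitosis point lies below 0, from -0.80 to -0.11, while replication points run from -0.72 to 0.38.

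Among the mitosis members the largest difference was that of Ube2c, with 87 counts in replicate 1 and 45 in replicate 2. Its log2 ratio was -0.80 (95% counting interval -1.35 to -0.27, adjusted p = 0.0138, binomial test). Ube2c overlaps Tnnc2, the fast troponin C gene on the opposite strand, which had 129544 and 126986 counts. Whether the counting used strand is not stated, so the part of Tnnc2 reads in Ube2c counts was not tested. In the second quantification Ube2c had 90 and 55 counts and missed the threshold (log2 ratio -0.55, adjusted p = 0.110, binomial test). Ect2 had 123 and 65 counts, a log2 ratio of -0.77 (adjusted p = 0.00340, binomial test). Nusap1 had 133 and 74 counts and a log2 ratio of -0.70. Cdk1 had 184 and 106 counts (log2 ratio -0.65), and Prc1 259 and 149 (also -0.65). In these 5 genes the count in replicate 2 was between 0.574 and 0.639 of that in replicate 1 after scaling.

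The most deeply counted members had smaller differences and narrower intervals. Mki67 had a log2 ratio of -0.36 (interval -0.47 to -0.25, adjusted p = 2.4e-09, binomial test), which is 1.29 times more in replicate 1. Top2a had 712 and 505 counts and a log2 ratio of -0.35 (interval -0.51 to -0.18). Cenpf had 445 and 298 counts and a log2 ratio of -0.43. The other mitosis members called were Ccna2, Kif20a, Foxm1 and Kif11, between -0.46 and -0.40. Of the 14 mitosis members not called, Bub1 was lowest at -0.66, with 77 and 44 counts (adjusted p = 0.0741, binomial test). Ccnb2, with 109 and 66 counts, missed the threshold narrowly (log2 ratio -0.57, adjusted p = 0.0560, binomial test). In 19 of the 26 mitosis members and 5 of the 17 replication members the 95% counting interval lay wholly below 0. Such intervals were not counted over all genes. Without adjustment, 5362 of the 17245 genes tested had a binomial p under 0.05 in either direction.

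The 3 replication members called were Tk1, Rrm2 and Mcm7. Tk1 had 99 and 54 counts and a log2 ratio of -0.72 (interval -1.23 to -0.23). Rrm2 had 232 and 157 counts and a log2 ratio of -0.41, and Mcm7 329 and 232 and a log2 ratio of -0.35. Mcm7 overlaps Cops6 and Ap4m1 on the opposite strand, and Ap4m1 had 340 and 208 counts. The other 5 subunits of MCM2-7 were between -0.08 and 0.38. Mcm3, with 166 and 195 counts, had the highest ratio of the 43 genes, 0.38 (interval 0.08 to 0.69), and did not pass the test (adjusted p = 0.0591, binomial test). In the second quantification Mcm3 passed at 0.46 (adjusted p = 0.0128, binomial test), the only member called higher there. Rrm2 and Tk1 thus had ratios within the range of the mitosis members, and Pcna (-0.03) and Rrm1 (-0.09) ratios above it.

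The TPM interval deposited with each value gave another view. It did not always hold the TPM itself. Ect2 was at 0.870 TPM in replicate 2 with an interval of 1.04 to 2.17. Cenpe was at 0.770 TPM in replicate 1 with an interval of 0.861 to 1.80. These intervals did not overlap between the libraries in 8 members, against 10.4% of the genes tested. They were Top2a, Mki67, Cdk1, Ccna2, Ccnb2, Ube2c and Kif11 of the mitosis members and Rrm2 of the replication members, all higher in replicate 1. For Cdk1 the interval was 4.53 to 6.86 TPM in replicate 1 and 2.66 to 4.29 in replicate 2. For Mki67 it was 4.70 to 5.56 and 3.50 to 4.36.

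TPM and counts pointed different ways in 6 members, Kif23, Tpx2, Cenpe, Mcm2, Mcm3 and Mcm6. A TPM divides the count by the gene's effective length, which the quantifier sets from the transcripts it assigns. Kif23 had a higher TPM in replicate 2, 3.75 against 3.36, but fewer counts, 112 against 166. Its effective length was 1542 bases in replicate 1 and 997 in replicate 2. Mcm2 likewise had an effective length of 3273 and 2302 bases, and Tpx2 of 3769 and 2765. Mcm3 went the other way, with 2135 and 2868 bases, and had more counts but a lower TPM in replicate 2. For Cenpe the counts were 193 and 136 at nearly equal TPM, with lengths of 7811 and 5851 bases. By TPM, 3 of 26 mitosis members were higher in replicate 2. On the scale log2(TPM + 1) the median difference of the 39 members whose mean reached 1 TPM was -0.27, against -0.04 over 12156 such genes.

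Other genes of the cycle, 117 in 5 lists, were compared in the same way. In the list of mitotic entry, kinetochore and spindle, 29 of 31 genes had a lower scaled count in replicate 2, with a median log2 ratio of -0.42. The binomial test called 7 of them, 22.6%, near the 21.3% of all genes, and all 7 were lower. They were Kif22, a chromosome motor, Knl1, a kinetochore scaffold, Melk, Dlgap5, Aspm, Anln and Racgap1. Kif22 went from 131 to 44 counts, a log2 ratio of -1.42, and also passed edgeR's exact test with common dispersion (adjusted p = 0.00790). The highest genes of this list by level were Bub3 at 14.2 and 13.0 TPM, Incenp at 4.09 and 4.34, Racgap1 at 3.38 and 2.42, and Tacc3 at 2.88 and 2.41. In the list of chromosome structure and mitotic exit, the median log2 ratio was -0.07, and 2 of 14 genes passed the test, 14.3%, below the 21.3% of all genes. They were the condensin subunits Ncapg (log2 ratio -0.97) and Ncaph (-0.66). Anapc11, Anapc2, Anapc1 and Pttg1 were its highest genes, at means of 23.8, 13.6, 13.5 and 12.5 TPM, and their ratios lay between -0.19 and 0.03.

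Genes of origin licensing and of the fork had a median near that of the replication members. In that list 21 of 38 genes had a lower scaled count in replicate 2, with a median log2 ratio of -0.05. The only gene called was Orc2, an origin recognition subunit, which was higher in replicate 2 (392 and 467 counts, log2 ratio 0.40, adjusted p = 4.8e-04, binomial test). Rpa1, the single-strand binding protein, was the highest at 29.2 and 26.6 TPM, followed by Orc3 at 13.2 and 12.3, Orc4 at 9.81 and 11.2 and Rfc1 at 7.07 and 6.49. Of the RB, E2F, DREAM and MYB list 4 of 18 passed, 22.2%, near the 21.3% of all genes, with E2f3 and E2f4 higher and Tfdp2 and Rbbp4 lower in replicate 2. E2f3 had a log2 ratio of 0.33 and Tfdp2 of -0.41. The highest genes there were Rbbp4, E2f6, Tfdp2 and Tfdp1, at means of 28.4, 28.1, 17.7 and 16.8 TPM.

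The 4 highest G1 regulators were above every member in level, while the list's median of 7.33 TPM was near the 7.02 of the chromosome structure and mitotic exit list. Cdkn1c, the CDK inhibitor p57, was at 255 TPM in replicate 1 and 243 in replicate 2, the highest of all genes in the 5 lists. Cdk4 was at 28.2 and 28.8 TPM and Ccnd3, cyclin D3, at 25.7 and 24.1. Cdkn1a, the CDK inhibitor p21, was at 31.9 and 15.3 TPM. Its 1843 and 821 counts gave a log2 ratio of -1.02, which passed the binomial test and edgeR's exact test (adjusted p = 0.00923). Ccnd1, cyclin D1, went the other way, with 5.65 and 10.6 TPM and a log2 ratio of 0.82 (interval 0.68 to 0.97), and Ccnd2 had a log2 ratio of 0.42. These 3 were the genes called of the 14 tested in this list, 21.4%, near the 21.3% of all genes. Over all 5 lists 17 of 115 genes tested were called, 14.8%, which is below the background.

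**Figure D4:**
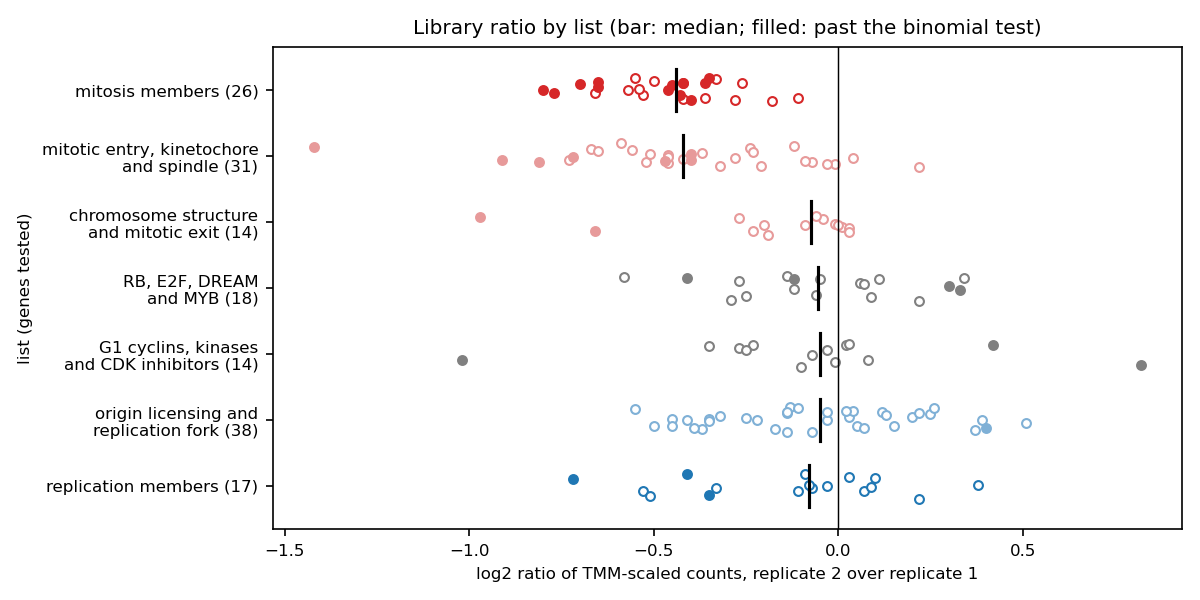
Log2 ratio of TMM-scaled counts, replicate 2 over replicate 1, for each gene tested of the 2 member classes and 5 further lists, with the number of genes in brackets. Bars mark medians and filled points passed the binomial test. The mitosis members and the list of mitotic entry, kinetochore and spindle have medians of -0.44 and -0.42, while the other 5 medians lie between -0.08 and -0.05. Vertical scatter within a row has no meaning.

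Markers of the cells that a muscle holds also differed between the libraries by the binomial test, which covers counting error only. With edgeR's exact test and the common dispersion, 0 markers of any list were called. By the binomial test, 5 of 5 myofibre markers were called, all higher in replicate 2. Markers of satellite cells and myoblasts summed to 71.2 TPM in replicate 1 and 77.3 in replicate 2, all 8 reached 1 TPM in both, and 2 of 8, Myod1 and Myog, were called, both higher in replicate 2. This share, 25.0%, is near the 21.3% of all genes. Pax7, which marks satellite cells, was at 1.46 and 1.74 TPM, while Myf5 was at 1.89 and 1.41 and Cdh15 at 7.30 and 6.33, and these 3 were not called. Tendon markers summed to 138 and 91.2 TPM, with Tnmd, Fmod and Mkx called lower and Scx called higher in replicate 2. Endothelial markers summed to 151 and 131 TPM with 3 of 6 called lower, and markers of fibro-adipogenic progenitors to 270 and 248 with 2 of 5 called lower. Markers of pericytes and smooth muscle summed to 336 and 324 TPM, with Pdgfrb and Myh11 called lower and Cspg4 called higher. Those of macrophages summed to 30 and 28.3 TPM, with 1 of 5, Mrc1, called lower. Schwann cell markers summed to 78.6 and 116 TPM with 2 of 5 called higher, and erythroid markers to 1161 and 1534 with 4 of 5 called higher. Lymphocyte markers were near 0, at 0.180 and 0.300 TPM in all, with Nkg7 at 0 in both libraries. Their part in the lower mitosis counts of replicate 2 was not tested.

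Promoters and the library ratio can be set side by side for the 36 genes with a window. The 21 genes with a CHR had a median log2 ratio of -0.42 and the 15 without of -0.11. The 7 with E2F letters had a median of -0.09 and the 29 without of -0.41. These groups are largely the mitosis and replication classes again. Among exceptions, Cdc45, whose window holds a CHR and a CCAAT box, had a ratio of 0.07. Tk1 and Nusap1, with none of the motifs in the window, had ratios of -0.72 and -0.70. The other mitosis genes without a CHR were Birc5 (-0.55), Ccnb1 (-0.53) and Cenpe (-0.36), all within the range of the mitosis class.

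Most members were assigned to coding transcripts. The annotation gives 249 transcripts for the 43 genes, a median of 5 each, and Ccnb2 alone has 1. A protein-coding transcript was the most abundant in 39 members. The median share of a member's TPM in coding transcripts was 89.6%, against 93.2% over the 11077 protein-coding genes above. Of the members' summed TPM 81.8% was coding, 9.38% was in retained-intron transcripts, 4.47% in processed transcripts and 4.36% in transcripts marked for nonsense-mediated decay. Of the highest genes, Mki67-201 held 100% of Mki67, Pcna-201 97.8% of Pcna and Rrm1-201 97.5% of Rrm1. Top2a-201 held 68.4% of Top2a and the processed transcript Top2a-207 17.0%. Cdk1-202 held 85.2% ± 15.3 (SD, n = 2) of Cdk1.

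In 3 members the coding share was under 50%. As a part of all members this is near the background, since 7.20% of the protein-coding genes were also under 50%. Cenpa had 24.3% in replicate 1 and 15.4% in replicate 2, with Cenpa-202, marked for nonsense-mediated decay, the most abundant at 32.6%. Kif23 had 37.5% and 24.5%, spread over Kif23-201, the processed transcript Kif23-212 and the retained-intron transcript Kif23-208. By counts the coding Kif23-201 led, with 133 of 166 in replicate 1 and 64.2 of 112 in replicate 2. Kif23-212 had 3.88 and 13.0 counts and Kif23-208 10.6 and 7.39. Both are short, at 392 and 524 bases, so few counts made a large share of the TPM. Tyms had 34.4% and 38.2%, but 84.5% in the second quantification. Cenpa and Kif23 stayed under 50% there, at 24.3% and 35.6%. Averaged over the libraries, the retained-intron transcript Prc1-214 was the most abundant form of Prc1 by TPM at 36.7%. For Ccne2 it was Ccne2-205, a processed transcript, at 40.4%. These too had few counts, 20.2 of 259 and 17.2 of 149 for Prc1-214 and 9.17 of 112 and 5.83 of 70 for Ccne2-205. Prc1-214 led in replicate 2 only, at 41.4%, while the coding Prc1-210 led in replicate 1 at 46.9%. In the second quantification coding transcripts led both genes. Prc1-210 was there at 33.2% against 19.7% for Prc1-214, and Ccne2-207 at 47.2% against 6.05% for Ccne2-205. Shares of single transcripts were unstable at these counts. Mcm5-203 held 0% in replicate 1 and 93.7% in replicate 2, while the leading transcript of Kif20a held 64.3% in the first quantification and almost none in the second. The most abundant transcript was the same in both libraries in 33 members, and the same in both quantifications in 33.

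**Figure D5:**
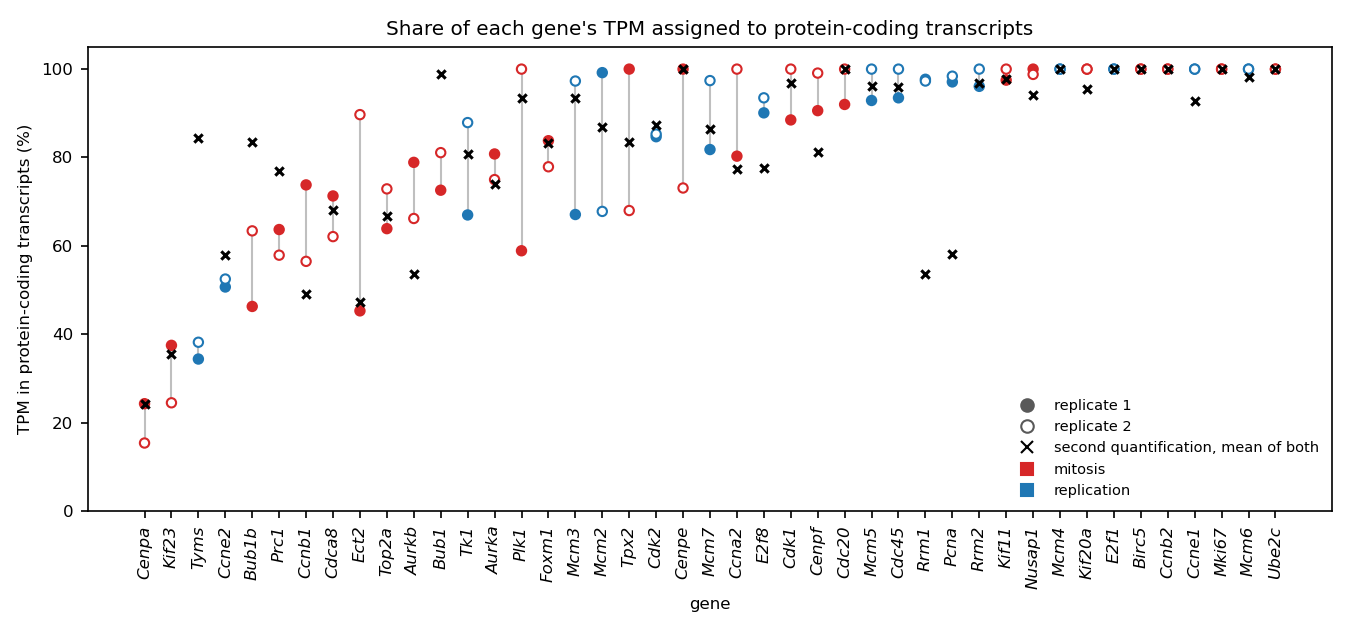
Percent of each gene's TPM in protein-coding transcripts in replicate 1 (filled) and replicate 2 (open), with the mean of the second quantification as a cross, and mitosis members in red and replication members in blue. Cenpa and Kif23 lie under 50% in all 3, and Tyms lies under 50% in the first quantification only. Genes at the right are almost wholly coding in the first quantification, but Pcna and Rrm1 are at 58.2% and 53.6% in the second.

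The counts of most members did not hang on the quantification. The second quantification gave 1.07 times the counts in the median member, and 30 of 43 members lay within 10%. Tyms moved most, to 1.96 times the counts, and Nusap1 and Cdca8 followed at 1.20 and 1.19 times. TPM were 1.31 times higher in the median member and 1.35 times in all genes whose mean reached 1 TPM. Rrm1 and Cdca8 were at 2.21 times and Pcna at 1.86 times. Counts were not whole, as a quantifier gives where it splits reads between genes, for Pcna, Mcm7, Ccnb1, Foxm1 and Cdc20. Another annotated gene overlapped 19 members on the opposite strand and 7 on the same strand. Of the members called, Kif20a overlaps Cdc23 (597 and 510 counts), Ccna2 overlaps Exosc9 (372 and 334), Prc1 overlaps Rccd1 (192 and 171) and Tk1 overlaps Afmid (73 and 41).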

How the data were processed

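Members and lists were chosen with earlier results of these data known. The authors' deposited gene and transcript tables hold expected counts and TPM, with the quantifier's interval of the TPM as lower and upper bounds in other columns, and the deposited transcript tables give each transcript's percent of its gene. A second deposited transcript table holds the authors' estimated counts and TPM made from the reads and an index, and was summed per gene. The build was mm10 with GENCODE M21, per the labels and deposited files, while for the aligner and the quantifiers no name was given in the sources used here. The reference is not specific to CAST alleles, so reads of both parental genomes were counted together.

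Counts were rounded to whole numbers. Library sizes were scaled by TMM (edgeR 4.0.16, R 4.3.3). Genes that reached 10 counts in total over the libraries entered a two-sided exact binomial test (scipy 1.17.1), with Benjamini-Hochberg adjustment across every gene tested, at 0.05, and tested on simulated data. Intervals (95%, exact) and floors cover counting error only. The alternative was edgeR's exact test with a common dispersion (biological coefficient of variation 0.119 over 14965 genes). Genes named are all members, the 4 highest of each list, the genes with the largest ratio in each direction among those called with at least 30 counts, and transcripts with at least 10% of a gene, and other names were chosen after their values were seen. Promoter windows came from RefSeq (GRCm38.p6), and a gene with several was counted if any held the motif. DESeq2 1.42.0 gave alternative size factors.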

Additional observations from a re-analysis of the deposited data

How the results depend on the processing

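The lower counts of the mitosis members in replicate 2 held under every scaling tried (TMM, DESeq2 size factors, total counts and ERCC totals) and in the second quantification, with 26 of 26 below 0 in each. The subsets by class were added after seeing the data. Scaling by ERCC totals moved the median log2 ratio of all genes from -0.01 to -0.30 and the share of calls that were lower in replicate 2 from 50.3% to 96.7%. It lowered every ratio, so the 26 of 26 under it followed from the result under TMM. Under it 34 members were called (25 mitosis and 9 replication) and 73 pathway genes, against 52.5% of genes, and the members' median was -0.69. Relative to the median of all genes, the mitosis members were at -0.42 and the replication members at -0.07 under both TMM and ERCC totals. A change of scaling moves every log2 ratio by the same amount, so these distances could not change and are no check. With edgeR's common dispersion 0 members were called, 0 mitosis and 0 replication. The second quantification called 5 replication members in place of 3 and 20 members in all, 13 of them among the 15 called in the gene table. It ended the calls of Ube2c and Kif11 (adjusted p = 0.110 and 0.0687, binomial test), and testing genes without a count filter ended that of Foxm1 (0.0553). It gave a median of 2.61 TPM in place of 1.94 and a ratio of replication to mitosis medians of 1.13 in place of 1.33. Over nuclear protein-coding TPM the members' median was 4.14. At a threshold of 2 TPM in place of 1, 16 members passed in both libraries. Leaving out replicate 1 or 2 gave a median of 1.65 or 2.13 TPM, and no test is possible with 1 library. No call of a single member reversed in any setting. No paired analysis was possible because there is 1 group.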

Other observations

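The promoter motifs were also counted in the 5 further lists, whose genes are not members. A CHR stood in 17 of 25 windows (68.0%) of the list of mitotic entry, kinetochore and spindle, and in 5 of 29 windows (17.2%) of the list of origin licensing and replication fork, against 20.2% of protein-coding genes. E2F letters stood in 2 of 25 (8.00%) and 15 of 29 (51.7%) of these windows, against 5.70%. In the list of RB, E2F, DREAM and MYB genes, E2F letters stood in 6 of 13 windows (46.2%). In the list of G1 cyclins, kinases and CDK inhibitors, a CHR stood in 2 of 12 windows and E2F letters in 1 of 12. The pair of CHR and CCAAT box stood in 13 of 25 windows (52.0%) of the mitotic list and in 2 of 29 (6.90%) of the fork list. These are counts of letters in windows of 300 bases, with no test.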
